A study of Mus musculus with 2 samples.

Results

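The interferon-response neutrophils are 142 cell barcodes of mature neutrophils in which several genes of the type I interferon program were read at once. They were taken from 2 single-cell RNA libraries of GR-1+ cells, and 71 of them carried the label 4T1p and 71 the label 4T1m. The members were chosen by measured UMI counts (a UMI counts 1 captured RNA molecule). A barcode had to hold 250 to 5000 genes, at most 27000 UMIs and a mitochondrial share of UMIs under a fixed limit. Its UMIs of S100a8, S100a9, G0s2 and Csf3r (called N) had to reach 5 and exceed those of Apoe, C1qa, Lyz2 and Csf1r (called M), and Camp, Ngp and Ltf together had to stay below 5. At least 3 of the 7 genes Rsad2, Ifit1, Ifit2, Ifit3, Isg15, Cmpk2 and Usp18 had to have a UMI. These 142 were 11.7% of the 1214 mature neutrophil barcodes (239 labelled 4T1p and 975 labelled 4T1m), among 3220 barcodes within the quality limits and 4390 deposited.

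4T1 is a mouse mammary carcinoma line, and 4T1p denotes its parental cells, whose tumors resist antibodies against PD1. 4T1m denotes polyclonal cells obtained from them with the mutagen MNNG, whose tumors respond. Both were grown in the mammary fat pad of young adult female BALB/c mice, both groups of mice received anti-PD1, tumors were taken 2 weeks after treatment, and GR-1+ cells were enriched with magnetic beads. The GR-1 antibody binds Ly6G and Ly6C, so the libraries hold neutrophils and monocytic cells, there was no group without anti-PD1, and how many animals went into each library is not stated.

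The library labelled 4T1p held 1641 barcodes with 9021132 UMIs (median 2066 per barcode) and that labelled 4T1m 2749 barcodes with 14840190 UMIs (median 2763). The study states the median depths of its tumors the other way round, so each library has the median given for the other tumor, and whether the libraries or the stated medians were exchanged was not tested. Directions below follow the labels of the files, and if the libraries were exchanged, every value labelled 4T1p would belong to the 4T1m tumor and the reverse. No barcode sequence was shared between the libraries (0 shared). With 1 library per condition no test was possible, the library and the tumor cannot be told apart, and the 95% intervals given here cover counting error only.

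Type I interferons bind a receptor shared by nearly all nucleated cells, and the kinases Jak1 and Tyk2 then phosphorylate STAT proteins, which join Irf9 and bind a short element, the ISRE, in the promoters of interferon-stimulated genes. Their products block viral replication (viperin from Rsad2, the IFIT proteins, the OAS enzymes), sense foreign nucleic acid, tag proteins with the ubiquitin-like Isg15, or, as Usp18 does, remove that tag and damp the receptor. A minority of neutrophils in blood and tumors of mice carries this program, and it is usually seen beside inflammatory and granule-rich neutrophil states.

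Of the 7 genes that chose the members, Rsad2 and Cmpk2, a mitochondrial nucleotide kinase, lie head to head on chromosome 12 with 12751 bases between their 5′ ends, and Ifit2, Ifit3 and Ifit1 lie within 99316 bases on chromosome 19 (GRCm38). Their promoters are shown because they let the shared element be seen. The motif searched was GAAANNGAAA on both strands, from 250 bases before to 50 after each RefSeq start, and matches may overlap. It occurred in 4 of the 6 rule genes with a promoter entry, namely Rsad2, Ifit1, Ifit3 and Isg15, and in 3.99% of 27025 genes. The stretches below (RefSeq, GRCm38.p6) are written in the direction of each gene with the matches in capitals, and TTTC on this strand is GAAA on the other.
Rsad2, chr12:26456551-26456584, minus strand: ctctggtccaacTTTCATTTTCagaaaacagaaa
Ifit1, chr19:34640773-34640825, plus strand: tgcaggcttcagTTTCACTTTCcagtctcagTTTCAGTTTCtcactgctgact
Ifit3, chr19:34583361-34583428, plus strand: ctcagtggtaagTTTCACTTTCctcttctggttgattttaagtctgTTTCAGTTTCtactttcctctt
Isg15, chr4:156200863-156200908, minus strand: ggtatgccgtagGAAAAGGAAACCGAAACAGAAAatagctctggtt
Gbp5, chr3:142496757-142496790, plus strand: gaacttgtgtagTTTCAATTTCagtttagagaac
The matches lay between −120 and −111 for Rsad2, −104 and −76 for Ifit1 (2 matches), −156 and −113 for Ifit3 (2 matches) and −78 and −57 for Isg15 (3 overlapping matches), counted from the start. Gbp5, a guanylate-binding protein that the rule did not use, is shown because it was among the genes that stood higher in the members, and its match lay between −165 and −156. No match was found in the windows of Ifit2 and Cmpk2, nor in those of Irf7, Ifi47 and Oasl1, which also stood higher in the members. This says only that these letters were not there.

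The share of mature neutrophils that met the criterion was 29.7% in the library labelled 4T1p (71 of 239, exact binomial 95% interval 24.0 to 35.9%) and 7.28% in that labelled 4T1m (71 of 975, 5.73 to 9.10%). The 2 intervals did not overlap, and which tumor had the larger share rests on the labels. Detecting 3 genes is easier in a deeper barcode, and the members had more UMIs than the rest: a median of 3163 in those labelled 4T1p and 3501 in those labelled 4T1m, against 2581 and 2391.5 in the other mature neutrophils. After each barcode was thinned to 1000 UMIs, with 98 shallower mature barcodes left out (19 labelled 4T1p and 79 labelled 4T1m), the shares were 17.7% (39 of 220, 12.9 to 23.4%) and 3.24% (29 of 896, 2.18 to 4.62%), with the same order. With a mitochondrial limit of 5% the shares were 30.4% and 6.97%.

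**Figure D1:**
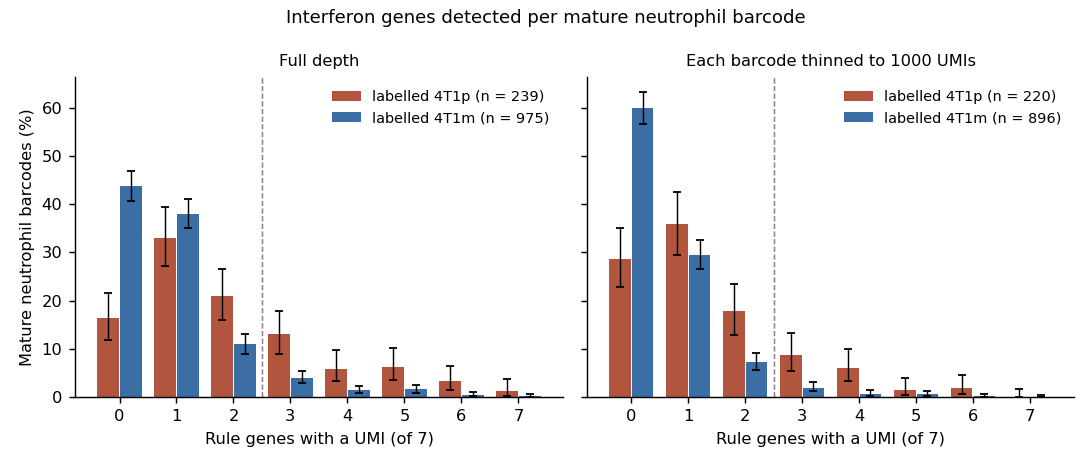
Percent of mature neutrophil barcodes (y axis) by the number of the 7 rule genes with a UMI (x axis), at full depth (left) and after thinning to 1000 UMIs (right). Bars are the 2 libraries, error bars exact binomial 95% intervals, and the dashed line marks the threshold of 3; no rule gene was read in 16.3% of the barcodes labelled 4T1p and 43.8% of those labelled 4T1m at full depth.

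The number of rule genes had no gap at the threshold. In the library labelled 4T1p, 39, 79 and 50 barcodes had 0, 1 and 2 of the 7 genes, and 31, 14, 15, 8 and 3 had 3, 4, 5, 6 and 7. In that labelled 4T1m the numbers were 427, 371 and 106, and then 38, 13, 15, 4 and 1. The members thus form the upper range of a continuous count, and 69 of the 142 had 3 genes. Isg15 was read in 141 members, Rsad2 in 137, Ifit1 in 106, Usp18 in 69, Cmpk2 in 51, Ifit2 in 36 and Ifit3 in 25. The commonest set was Rsad2, Ifit1 and Isg15 alone, in 37 members, followed by Rsad2, Isg15 and Usp18 in 13.

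Other cell classes met the same criterion too, and their shares are given at full depth and after thinning. Among macrophage-gated barcodes (M at least 5 and above N) it was met by 14.0% labelled 4T1p (109 of 776) and 18.3% labelled 4T1m (166 of 905), and after thinning by 2.96% and 4.21%. Where a Ptprc UMI was required, 31.8% and 27.3% of them met it, with the order of the libraries turned, beside 32.3% and 7.71% of the mature neutrophils. Of the immature neutrophils, which exceed the limit on Camp, Ngp and Ltf, 4 of 60 met it, and 1 of 60 after thinning. Of the lymphocyte-gated barcodes 2 of 65 met it (their median depth was 4154 UMIs), and 0 of 64 did so once thinned, where a limit of 3 counts allows a share of up to 4.69% and the exact binomial interval one of up to 5.60%. At equal depth the mature neutrophils labelled 4T1p were the class with the highest share among those with over 10 barcodes, and those labelled 4T1m, at 3.24%, lay within the interval of the macrophage-gated barcodes of the same library (2.88 to 5.93%).

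**Figure D2:**
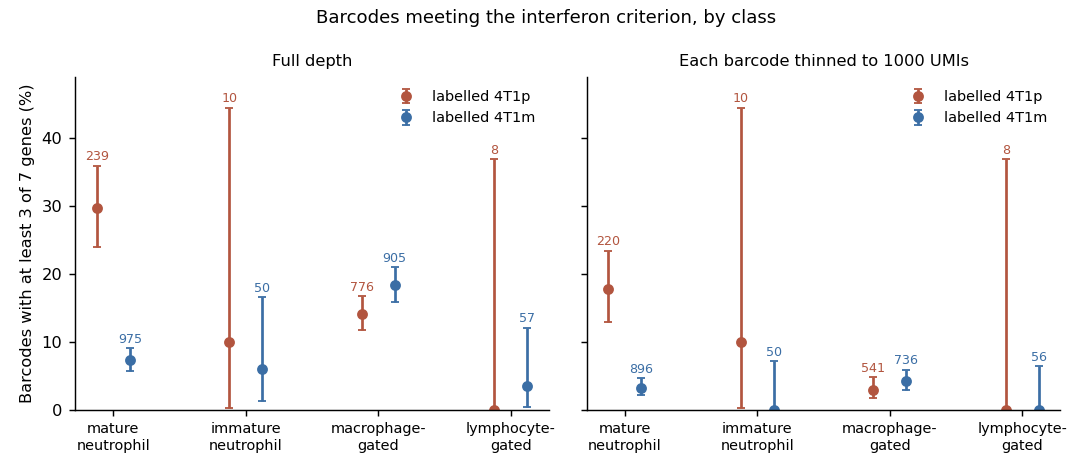
Percent of barcodes with at least 3 of the 7 genes (y axis) by cell class, at full depth (left) and thinned to 1000 UMIs (right). Points are the 2 libraries, bars exact binomial 95% intervals and the printed numbers the barcodes in each class; the mature neutrophils labelled 4T1p stand at 29.7% and 17.7%.

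The levels of the rule genes are a description, since they chose the members. They are summed UMIs scaled to 1000000 UMIs of the class (CPM) with exact Poisson 95% intervals. Isg15, the ubiquitin-like modifier, was at 5452 CPM (5170 to 5747) in the members labelled 4T1p and 2235 (2071 to 2409) in those labelled 4T1m, against 1503 and 595 in the other mature neutrophils. Rsad2, which encodes viperin, was at 3120 (2907 to 3345) and 2438 (2266 to 2619) CPM, against 288 and 120. Isg15 was thus still read outside the members, in 66.1% and 46.6% of the other mature neutrophils, and Rsad2 in 26.8% and 12.6%. Of the lymphocyte-gated barcodes labelled 4T1m, 14.0% had an Isg15 UMI and 5.26% an Rsad2 UMI.

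Ifit1, whose product binds viral RNA caps, was at 819 (712 to 938) and 435 (364 to 516) CPM in the members, against 34.8 and 16.6 in the others. Usp18, the protease that removes Isg15 from proteins, was at 267 (207 to 338) and 203 (156 to 260) CPM, against 14.3 and 3.96. Cmpk2 was at 176 (129 to 236) and 203 (156 to 260) CPM, on 45 and 62 UMIs, against 1 and 8 UMIs in the others. For these genes the members of both libraries lay above the other mature neutrophils, which follows from the rule, since these genes chose the members.

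Ifit2 was at 270 (210 to 342) and 101 (68.9 to 144) CPM in the members, with 1 and 2 UMIs in the others, and its log2 ratio was 7.05 (4.52 to 12.37) in the library labelled 4T1p and lay between 5.03 and 10.11 in that labelled 4T1m. Ifit3 was at 165 (119 to 223) and 91.6 (60.9 to 132) CPM. It had 2 UMIs in the other neutrophils labelled 4T1p and 0 in those labelled 4T1m, where the members stood at least 6.27 higher on the log2 scale against a floor of 3 counts over the group. The low counts of these genes outside the members follow from the rule. Reads of the Ifit genes may be split among close copies, so their single levels are less certain than their sum.

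**Figure D3:**
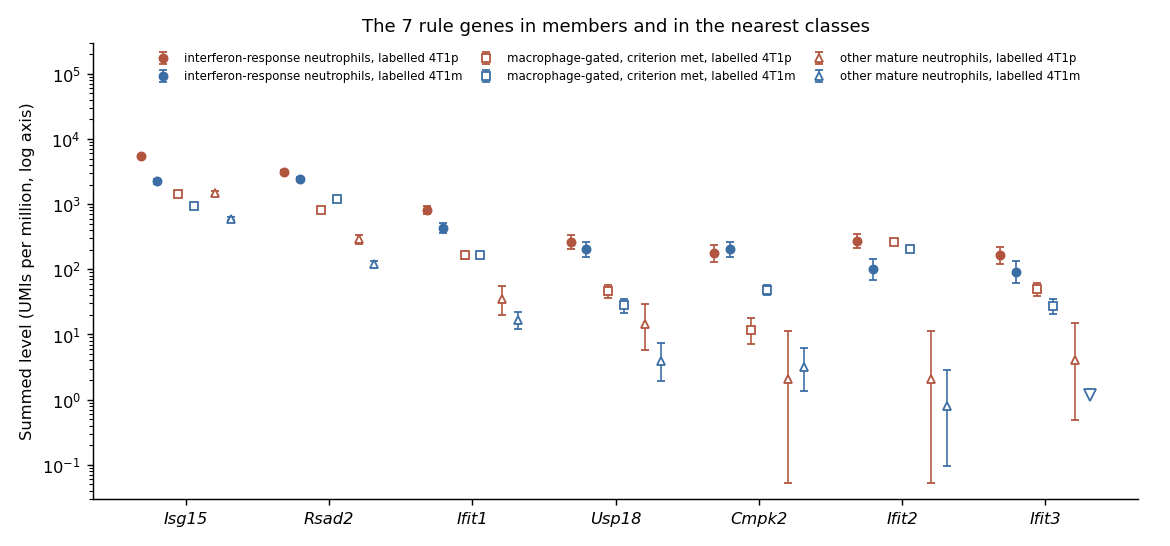
Summed level of each rule gene in CPM (y axis, log scale) in interferon-response neutrophils (filled circles), macrophage-gated barcodes that met the criterion (squares) and other mature neutrophils (triangles), for both libraries, with exact Poisson 95% intervals. The inverted triangle is the floor of 3 counts where Ifit3 had 0 UMIs; the filled circles are the highest for 6 genes, while for Ifit2 the squares labelled 4T1m lie above the circle (206 against 101 CPM).

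Barcodes just inside and just outside the threshold are set side by side here, with no test. Labelled 4T1p, the 31 barcodes with 3 rule genes held the 7 genes at 7010 CPM and the 50 with 2 held them at 3226. Labelled 4T1m, the 38 with 3 and the 106 with 2 held them at 2848 and 2377 CPM. The other interferon-stimulated genes, 92 genes of 7 lists that the rule did not use, were together at 22940 CPM with 3 genes and 19735 with 2 in the library labelled 4T1p, and at 20807 and 19039 in that labelled 4T1m. Over both libraries their summed level was 13140 CPM in the 466 barcodes with no rule gene, 17297 in the 450 with 1 and 19272 in the 156 with 2. It was 21657 in the 69 with 3, 23502 in the 27 with 4 and 33372 in the 46 with 5 to 7. The mix of libraries changed along this scale, with 39 of the 466 and 26 of the 46 labelled 4T1p. With 0, 1, 4 and 5 to 7 rule genes the level labelled 4T1p was 11410, 17436, 21698 and 37172 CPM, so it fell from 3 to 4. Labelled 4T1m it was 13277, 17269, 24960 and 28788 CPM and rose at each step. The 18 inflammatory neutrophil genes, which include Il1b, Nfkbia and Clec4e, ran from 35307 CPM with no rule gene through 41959 with 2 to 36911 with 5 to 7, with no comparable trend. Median depth moved along this scale too, from 1952.5 UMIs with no rule gene to 3584.5 with 5 to 7. The summed level of the 10 macrophage markers with 0, 1, 2, 3, 4 and 5 to 7 rule genes was 1801, 1571, 2341, 5166, 1303 and 3937 CPM labelled 4T1p and 1399, 1118, 2008, 3031, 6081 and 5119 CPM labelled 4T1m. It was higher at 5 to 7 than at 0 in both, while labelled 4T1p the 14 barcodes with 4 rule genes had the lowest level. The part of depth and of macrophage RNA in the result was not tested.

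**Figure D4:**
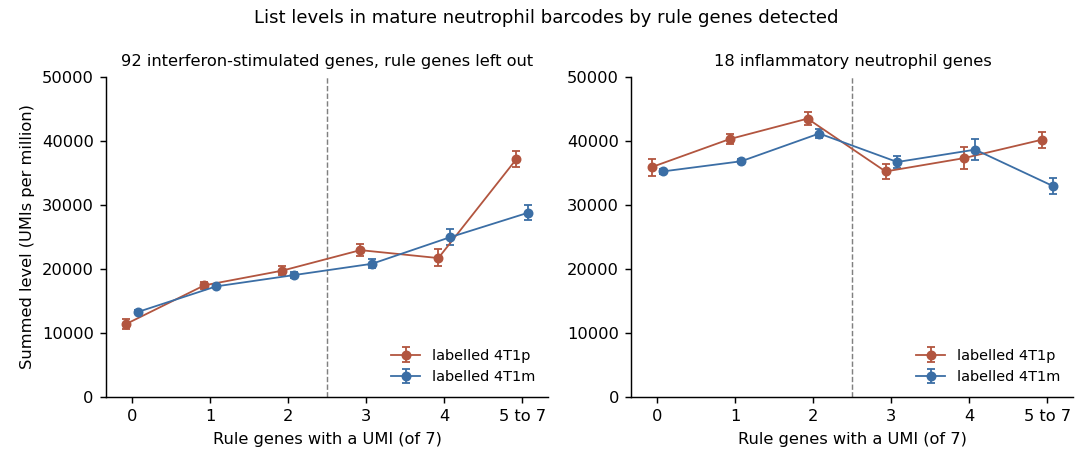
Summed level in CPM (y axis) of 92 interferon-stimulated genes without the rule genes (left) and of 18 inflammatory neutrophil genes (right) in mature neutrophil barcodes, by the number of rule genes with a UMI (x axis). Points are the 2 libraries with exact Poisson 95% intervals and the dashed line is the threshold; on the left the level labelled 4T1p runs from 11410 to 37172 CPM and that labelled 4T1m from 13277 to 28788.

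Across the transcriptome, 1915 genes had at least 200 UMIs in members and other mature neutrophils together. A gene was counted as higher or lower where the log2 ratio of CPM passed 1 in the pooled libraries and in each of them. By this rule 42 genes (2.19%) were higher in the members and 2 (0.104%) were lower, namely Zfp608 and Cir1. At a mitochondrial limit of 5% 25 genes were higher, 21 of them among the 42, and after thinning to 1000 UMIs 8 of 692 tested genes were, 6 of them among the 42. Of the 21 no longer counted at 5%, 13 fell under 200 UMIs and so were not tested, and of the 36 no longer counted after thinning 34 did. Of these untested genes, 10 of the 13 and 21 of the 34 still had log2 ratios above 1 pooled and in each library. Of the 42, 3 were rule genes (Ifit1, Rsad2 and Isg15), 22 belonged to the lists of interferon-stimulated and antigen presentation genes and 17 to neither. The median log2 ratio of all 1915 genes was −0.05. The contrast is the one that chose the members, so the counts of lists below describe what travelled with the rule genes and no more.

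The sensors of nucleic acid were higher in 3 of 3 tested genes. Ifih1, which encodes the double-stranded RNA sensor MDA5, was at 122 and 324 CPM in members labelled 4T1p and 4T1m, against 30.7 and 35.7 in the others, with log2 ratios of 1.99 (1.05 to 2.98) and 3.18 (2.76 to 3.61). One barcode with 229 M UMIs held 35 of its 130 UMIs, and without it the pooled ratio was 2.31 in place of 2.73. Ddx58, which encodes RIG-I, was at 188 and 190 CPM against 40.9 and 40.4, and its ratios of 2.20 and 2.23 were alike in the 2 libraries. Zbp1, a sensor of Z-form nucleic acid, was at 376 and 141 CPM against 106 and 36.1. Ifih1 fell under 200 UMIs once doublet-ranked barcodes were removed, Ifih1 and Ddx58 did at a mitochondrial limit of 5%, and all 3 did after thinning to 1000 UMIs, so they were not tested there. Their log2 ratios still lay above 1 in both libraries, the lowest being 1.48 for Ifih1 labelled 4T1p after thinning.

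The interferon-induced GTPases, which attack vacuoles of intracellular pathogens, were higher in 7 of 7 tested genes with a median log2 ratio of 1.46 labelled 4T1p, 1.90 labelled 4T1m and 2.02 pooled. Gbp5, Igtp and Irgm1 fell under 200 UMIs at a mitochondrial limit of 5%, with ratios labelled 4T1p of 2.06, 1.54 and 0.91. Irgm1 was tested but did not pass where 4 of 7 rule genes were required (0.86 labelled 4T1p), and it fell under 200 UMIs where a Ptprc UMI was. After thinning Gbp2b was tested and did not pass (0.93 labelled 4T1p), and 5 further GTPases fell under 200 UMIs with ratios above 1 in both libraries. Among them Gbp5, Gbp7, Gbp2b and Gbp2 lie within 144031 bases on chromosome 3. Gbp5 was at 270 and 180 CPM in members labelled 4T1p and 4T1m against 65.4 and 38.4 in the others, and Ifi47 at 525 and 154 against 129 and 40.8. Gbp2 had log2 ratios of 1.14 (0.79 to 1.49) and 1.38 (1.09 to 1.66). Gbp2 and Gbp2b are close copies whose reads may be exchanged. Gbp6 had no UMI in the members.

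Of the oligoadenylate synthetases and nucleases, 4 of 5 tested genes were higher. Oas3 and Oasl2 fell under 200 UMIs at a mitochondrial limit of 5% and where a Ptprc UMI was required, with log2 ratios labelled 4T1p of 0.74 and 0.87 for Oas3 and of 1.48 and 2.22 for Oasl2. Where 2 of 7 rule genes were required Oas3 was tested and did not pass (0.86 labelled 4T1p and 0.99 labelled 4T1m). All 4 higher genes fell under 200 UMIs after thinning. Their ratios labelled 4T1p and 4T1m were then 2.16 and 2.61 for Oasl1 and 1.85 and 1.95 for Isg20. Those of Oas3 were 1.31 and 1.73, and those of Oasl2 0.99 and 1.90. Oasl1 was at 470 and 422 CPM in members labelled 4T1p and 4T1m against 149 and 98.7, Oasl2 at 247 and 144 against 67.5 and 32.1, and Isg20, an RNA exonuclease, at 478 and 252 against 143 and 80.0. Parp14, a mono-ADP-ribosyltransferase, was the only tested gene of its list, and it was at 600 and 478 CPM against 112 and 114.

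Transcription factors were higher in 2 of 6. Irf7, which amplifies the response, was at 439 and 203 CPM in members labelled 4T1p and 4T1m against 166 and 51.5. Irf9, which joins the STAT proteins on the ISRE, had log2 ratios of 0.81 (0.17 to 1.44) and 1.33 (0.87 to 1.78). Irf1, which answers mainly to interferon gamma, had 0.81 (0.46 to 1.15) in the library labelled 4T1p and 0.02 (−0.38 to 0.41) in that labelled 4T1m. Stat3, which carries signals of other cytokines, had 0.21 (−0.26 to 0.67) and −0.08 (−0.45 to 0.27).

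The antiviral effectors were uneven, with 3 of 14 tested genes higher (Slfn5, Rtp4 and Trim30a) and a median pooled log2 ratio of 0.83. Slfn5, a schlafen protein, was at 302 and 308 CPM in members labelled 4T1p and 4T1m against 67.5 and 42.0, and Rtp4 at 784 and 344 against 270 and 123. Slfn4 lay at the threshold, with ratios of 1.00 (0.78 to 1.21) and 1.42 (1.26 to 1.57). Ifitm3, a membrane protein that blocks viral entry, was at 3057 and 2065 CPM against 1774 and 1213. Its relative Ifitm1 was slightly lower in the members, at 4190 and 5039 CPM against 4589 and 5572, with ratios of −0.13 (−0.24 to −0.03) and −0.14 (−0.22 to −0.07). Of the genes for Isg15 conjugation 1 was tested, the ligase gene Trim25, with ratios of 0.55 and 0.43. Herc6, the mouse Isg15 ligase, was below the count limit and was at 239 and 180 CPM against 51.1 and 22.6.

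**Figure D5:**
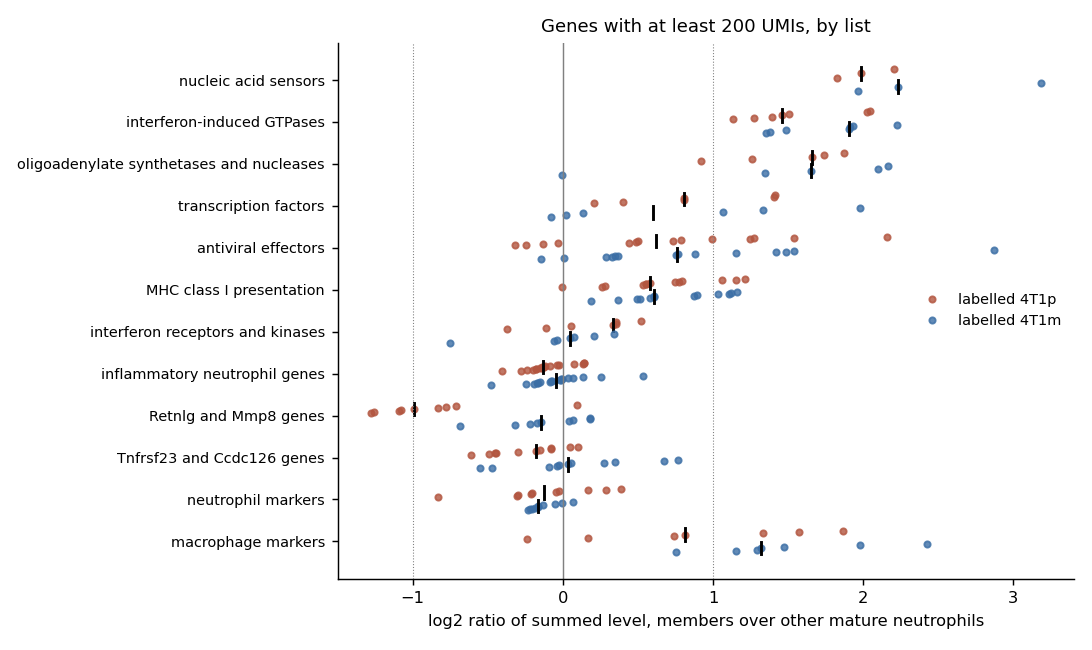
Log2 ratio of summed level, interferon-response over other mature neutrophils (x axis), for each gene with at least 200 UMIs, by list (y axis). Points are genes in the 2 libraries, black ticks the median of each list and library, and dotted lines 2-fold; the 7 GTPases all lie past 2-fold in both libraries, and the inflammatory genes lie around 0 with medians of −0.13 and −0.04.

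Antigen presentation by MHC class I, which interferons raise in most cells, had a median pooled log2 ratio of 0.94 over 13 genes, and 2 of them (Tap1 and Tapbp) passed the rule. Neither passed where at least 2 or at least 4 of the 7 rule genes were required. Tap1, a subunit of the peptide transporter, was at 180 and 141 CPM in members labelled 4T1p and 4T1m against 77.7 and 64.6. B2m, the shared light chain, was at 2293 and 1365 CPM against 1368 and 956, and H2-K1 at 1709 and 969 against 1165 and 687. Pooled ratios overstate genes that are higher in the library labelled 4T1p, which gave 71 of 142 members and 168 of 1072 others, and within the libraries the medians of this list were 0.58 and 0.61. Cd274, which encodes PD-L1, was at 1078 and 887 CPM against 863 and 603, with ratios of 0.32 (0.10 to 0.54) and 0.56 (0.36 to 0.74). It did not pass the rule, and neither did any of the 5 tested checkpoint genes.

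Of the genes upstream of the program, 0 of 7 tested genes for interferon receptors and their kinases were counted higher, beside 2.19% of all tested genes, with a median log2 ratio of 0.33 labelled 4T1p, 0.05 labelled 4T1m and −0.01 pooled. Ifnar1 was at 94.1 and 91.6 CPM in members labelled 4T1p and 4T1m against 65.4 and 95.5, and Ifnar2 at 122 and 137 against 157 and 133, with intervals that overlap. Of 16 interferon genes, 15 had 0 UMIs in the members. The exception, Ifnb1, had 1 UMI in members labelled 4T1p and 5 in those labelled 4T1m, of 255115 and 305587 UMIs, and it was at 114 and 154 CPM in the macrophage-gated barcodes that met the criterion. Among feedback inhibitors 1 was tested, Socs3, with ratios of −0.19 (−0.46 to 0.07) and 0.50 (0.23 to 0.77). Socs1 was at 153 and 32.7 CPM against 55.2 and 26.9.

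Genes of the interferon gamma response were mixed. Gbp2 was the 1 of 7 that passed. The MHC class II genes H2-Aa and Cd74, which macrophages express at high levels, had ratios of 0.56 and 1.15 and of 0.58 and 1.33. One barcode held 200 of the 615 Cd74 UMIs of all members and had 351 M UMIs. It also held 81 of the 246 H2-Aa UMIs. Without it the ratios labelled 4T1p were −0.69 in place of 0.58 for Cd74 and −0.57 in place of 0.56 for H2-Aa.

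The neutrophil markers are in part a description of the gate, which used S100a8, S100a9, G0s2 and Csf3r. The 10 neutrophil markers summed to 98230 CPM in members labelled 4T1p and 112632 in those labelled 4T1m, with S100a9 the most abundant, against 118410 and 129515 in the other mature neutrophils and 1263 and 1837 in the macrophage-gated barcodes that met the criterion. Their median log2 ratio against the others was −0.13 and −0.17, and 0 of 10 passed the rule. S100a9 itself was at 50111 and 55375 CPM against 61858 and 64490. Of the markers that the gate did not use, Cxcr2, the receptor for Cxcl2, was at 372 and 331 CPM in members labelled 4T1p and 4T1m, 384 and 371 in the others, and 1.76 and 5.07 in the macrophage-gated barcodes that met the criterion. Hdc, which makes histamine, was at 1176 and 1387 CPM, against 1196 and 1557 and against 15.3 and 23.2. The rule limits Camp, Ngp and Ltf among the 12 immature granule genes. Of the 12, Mpo, Elane, Ctsg and Chil3 had 0 UMIs in the members. The list summed to 1219 and 1823 CPM in members labelled 4T1p and 4T1m against 711 and 698 in the others, and 286 of its 311 and 516 of its 557 UMIs in the members were of Lyz2, a lysozyme that macrophages also express and that counts in M.

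Genes of 3 further neutrophil states are given by library, and differences between the libraries were not tested. Of the 9 tested genes that accompany Retnlg and Mmp8, which mark granule-rich neutrophils, 0 passed the rule, with median ratios of −0.99 in the library labelled 4T1p and −0.14 in that labelled 4T1m. Retnlg, a resistin-like secreted protein, was at 1486 CPM in members and 2643 in others labelled 4T1p, and at 5602 and 5345 in those labelled 4T1m. Lcn2, a siderophore-binding protein, was lower in both, at 651 against 1292 and 985 against 1583 CPM. The 11 tested genes around Tnfrsf23 and Ccdc126, with glycolytic and hypoxia genes such as Ldha and Hilpda, had medians of −0.18 and 0.04, and 0 passed. The 18 inflammatory genes had medians of −0.13 and −0.04, and 0 passed. Il1b, the cytokine of this list with most UMIs, was at 9890 and 10423 CPM in members against 10880 and 10191.

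Among chemokines, 0 of 10 tested genes passed. Cxcl2, the main neutrophil attractant here, was at 41691 and 44347 CPM in members labelled 4T1p and 4T1m against 45548 and 46194. Cxcl10, an interferon-induced attractant of T cells, was at 337 and 694 CPM against 217 and 69.0, with ratios of 0.64 (0.21 to 1.06) and 3.33 (3.03 to 3.63). Its 298 UMIs came from 33 members, and 69 of them from 1 barcode labelled 4T1m. Ccl7 had 96 of its 139 UMIs in 1 barcode, and without it the pooled ratio was 0.45 in place of 2.12.

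At full depth RNA of macrophages was higher in the members. The 10 macrophage markers summed to 3963 and 4182 CPM in members labelled 4T1p and 4T1m against 1897 and 1358 in the others, and to 38858 and 27263 in the macrophage-gated barcodes that met the criterion. Apoe was the most abundant, none was at 0, and 3 of 7 tested passed the rule (Apoe, C1qa and C1qc). Once doublet-ranked barcodes were removed, Apoe and C1qa were tested and did not pass (0.86 and 0.81 labelled 4T1m). Apoe was also tested after thinning to 1000 UMIs and did not pass (0.54 labelled 4T1p and −0.37 labelled 4T1m). C1qa and C1qc then fell under 200 UMIs, with 12 and 3 UMIs in the members. Their ratios were 0.54 and −0.69 labelled 4T1p, and −0.71 and −0.93 labelled 4T1m. Nor did Apoe and C1qa pass at a mitochondrial limit of 5% (0.43 and 0.71 labelled 4T1p). Few barcodes held much macrophage RNA, since 8 of 142 members (3 labelled 4T1p and 5 labelled 4T1m) had N below 4 times M. These 8 held 61.9% of the M UMIs of all members. With N at least 4 times M in both groups, 35 genes were higher, and 32 of these were among the 42. Among the 10 lost were Apoe, C1qa, C1qc, Ctss, Fn1, Gatm, Lgmn, Pdia3 and Plau, and the 7 GTPases and 3 sensors all stayed. The pooled median of the tested interferon-stimulated genes was then 1.59, against 1.45 with all members. By library it was 1.20 in place of 1.26 labelled 4T1p and 1.56 in place of 1.35 labelled 4T1m. The pooled median of the macrophage markers was 0.62 over 4 tested genes, in place of 1.64 over 7. The macrophage markers then summed to 1225 CPM in members and 1457 in others labelled 4T1p, with a median log2 ratio of −0.26, and to 2285 and 1038 labelled 4T1m, with a median of 1.03, so the members labelled 4T1m still stood above the others.

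Markers of other cell types had few UMIs in the members. All 5 B cell markers had 0 UMIs, as had Cd3e, Cd3g and Trac among the T cell markers, where Cd3d had 3 UMIs, and 6 of the 9 dendritic markers, among them Flt3, Zbtb46 and Clec9a. The dendritic list summed to 204 CPM in members and 53.2 in others labelled 4T1p and to 65.4 and 57.9 labelled 4T1m, and Bst2, which is also interferon-stimulated, gave 69 of its 72 UMIs in the members. The stromal list summed to 137 and 32.7 CPM labelled 4T1p and to 26.2 and 102 labelled 4T1m. Of the tumor and stromal markers, Krt8 had 7 UMIs and the endothelial Pecam1 25. Of the erythroid markers Hbb-bs was the lowest-ranked gene, with 10 UMIs in members and 1021 in others, of which 967 lay in 1 barcode. Fabp4, a lipid carrier and the first-ranked gene, had 416 of its 418 UMIs in 1 barcode labelled 4T1p, and without that barcode its pooled log2 ratio was −0.00 in place of 7.67. Among the further higher-ranked genes Gatm, an enzyme of creatine synthesis, had 59 of 177 UMIs in the barcode with 351 M UMIs, while Gm13822 had at most 10 of its 152 UMIs in any barcode and pooled ratios of 2.21 with and 2.12 without it.

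Some of the higher genes outside the rule held the ISRE letters as well. Of 30 such genes with a promoter entry 14 held GAAANNGAAA (46.7%), among them Ifih1, Ddx58, Slfn5, Oas3, Trim30a and Gbp5, beside the 3.99% of all genes. It was present in 10 of 11 GTPases, 34 of 69 interferon-stimulated genes outside the rule and 1 of 14 inflammatory genes. The second element searched, TTCNNNGAA, the GAS element of the interferon gamma response, was present in 4 of the 30 (Gbp5, Igtp, Isg20 and Gbp7), beside 9.55% of all genes, and in 6 of 11 GTPases and 18 of 69 interferon-stimulated genes outside the rule. A match is a description of letters, not of binding.

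The members are set beside the macrophage-gated barcodes that met the same criterion. The rule genes chose both groups, and 275 of 1681 macrophage-gated barcodes met the criterion at full depth but 47 of 1277 after thinning, so the ratios that follow are a description. At levels pooled over the libraries, Usp18 was higher in the members by 2.70 (2.35 to 3.05) on the log2 scale, Cmpk2 by 2.52 (2.14 to 2.90), Ifit1 by 1.88 (1.68 to 2.07), Isg15 by 1.68 (1.61 to 1.76) and Rsad2 by 1.41 (1.33 to 1.50). Ifit2 was lower, at −0.36 (−0.67 to −0.06). Outside the rule genes, Slfn4 stood 4.73 (4.51 to 4.95) higher, Ifitm1 3.48 (3.39 to 3.57) and Gbp2 2.13 (1.91 to 2.35). Oasl1 at −0.61 (−0.80 to −0.42), Ifih1 at −1.11 (−1.38 to −0.86) and Ifnb1 at −3.68 (−5.13 to −2.55) stood lower. These ratios compare shares of UMIs and not molecules per cell.

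Within the members, 378 genes had at least 200 UMIs for a comparison of the libraries. Of these 15 (3.97%) were past 2-fold higher in the members labelled 4T1m and 8 (2.12%) past 2-fold lower. The log2 ratio, 4T1m over 4T1p, was −1.29 (−1.42 to −1.15) for Isg15, −0.91 (−1.24 to −0.59) for Ifit1 and −0.36 (−0.50 to −0.21) for Rsad2, while the interval of Cmpk2 held 0 (0.20, −0.38 to 0.79). Rtp4 and Ifi27l2a, further interferon-stimulated genes, had ratios of −1.19 (−1.54 to −0.84) and −1.15 (−1.42 to −0.89). Per barcode, rule genes took a median of 0.900% of the UMIs in members labelled 4T1p (lowest 0.0700%, highest 5.76%) and 0.596% in those labelled 4T1m (lowest 0.0419%, highest 4.57%), with wide overlap.

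The ratios between libraries are set here beside those outside the members, and whether the 2 differ was not tested. In the other mature neutrophils the log2 ratio, 4T1m over 4T1p, of Isg15 was −1.34 (−1.47 to −1.21), that of Rtp4 −1.14 (−1.43 to −0.83) and that of Irf7 −1.68 (−2.10 to −1.27), against −1.11 (−1.59 to −0.65) for Irf7 in the members. Gapdh, a glycolytic enzyme, had ratios of −1.32 in members and −1.50 in others. Retnlg was higher in those labelled 4T1m, by 1.91 (1.75 to 2.08) in members and 1.02 (0.93 to 1.10) in others, and S100a6 by 1.32 (1.18 to 1.46) and 0.61 (0.53 to 0.69).

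Among the genes higher in members labelled 4T1m, the heat shock gene Hspa1b had 183 UMIs against 19 and a log2 ratio of 3.01 (2.32 to 3.77). One barcode held 98 of the 183, and without the top barcode of each library the ratio was 2.82. Dnaja1, its co-chaperone, was higher by 1.34 (0.89 to 1.81) in members and 0.84 (0.55 to 1.13) in others. Fn1 and C1qa, macrophage products, had log2 ratios of 1.28 and −1.14 in the members, and with N at least 4 times M that of C1qa was 0.22.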

How the data were processed

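Single-cell 3′ libraries (10x Genomics) of GR-1+ cells were deposited by the authors as filtered matrices of raw UMI counts per gene and barcode, 1 per tumor, aligned to mm10 with Cell Ranger per the labels and the study's methods (the matrix header gives software 3.1.0, the study's methods a later version). Intronic handling and the step that removes empty droplets are not given in the sources used here. From these counts barcodes were classified by fixed UMI thresholds in Python 3.11.15 (numpy 2.4.6, scipy 1.17.1, pandas 2.3.3), without clustering. Counts were summed per class and library and scaled to CPM. Intervals are exact Poisson for levels and exact binomial for shares and ratios, at 95%, and a group at 0 was set to 3 counts. Thinning drew 1000 UMIs per barcode without replacement (seed 11). Doublets were kept; Scrublet (scanpy 1.11.5) ranked barcodes, and removing 1% per 1000 barcodes was an alternative, since no doublet removal before deposit is stated. The ratio code was tested on simulated data. Gene places came from GENCODE GRCm38 and promoters from RefSeq.

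The members and the gene lists were chosen with earlier results of these data known. Named genes were the rule genes, up to 4 per list with most UMIs in the members, the highest and lowest ratio of a list, and the top 15 higher and 10 lower genes, with 8 each way between libraries; mitochondrial genes, Gm42418 and AY036118 were left out of ranks. Further list members are named as examples, chosen after their values were seen. Of the listed symbols 7 were not in the files. No replicates exist, and the deposited data hold no tests. Results that need withheld items are not reported here.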

Additional observations from a re-analysis of the deposited data

Results flagged for a closer look

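For 9 genes the members stood on opposite sides of the other mature neutrophils in the 2 libraries, each with a counting interval that left out 0. The difference between the libraries was not tested, since each is 1 library. Among chemokines the log2 ratios labelled 4T1p and 4T1m were −3.22 and 2.15 for Ccl2, −0.48 and 0.52 for Ccl4, −0.31 and 0.48 for Ccl6, −1.62 and 1.75 for Ccl9 and −1.07 and 0.40 for Cxcl1. Single barcodes bear on several of them: 66 of the 176 Ccl2 UMIs of the members and 192 of the 537 of the others lay in 1 barcode each, and 45 of the 95 Ccl9 UMIs in 1 barcode with 156 M UMIs. Without that barcode the ratio of Ccl9 labelled 4T1m was 0.74, and without the top barcode of Cxcl1 its ratio labelled 4T1m was 0.08. The ratio of Ccl2 labelled 4T1m was 1.45 without the member barcode that held 66 of its UMIs. That of Ccl6 was 0.01 without 1 barcode with 156 M UMIs, which held 115 of its 582 UMIs, and that of Ccl4 was 0.17 without the barcode that held 215 of its 1511.

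The other genes were the heat shock gene Hspa1b (−1.92 and 0.86), the Myc antagonist Mxd1 (0.39 and −0.19), the oxidase subunit Ncf1 (0.52 and −0.34) and the calcium-binding S100a6 (−0.52 and 0.18). One barcode labelled 4T1m held 98 of the 202 Hspa1b UMIs of the members, and without it the ratio labelled 4T1m was −0.20, on the same side as that labelled 4T1p. Without the barcode with most S100a6 UMIs, 227 of 2221, its ratio labelled 4T1m was 0.08.

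Barcodes over the mitochondrial limit were outside all comparisons, and they held further barcodes that met the rest of the rule. There were 17 in the library labelled 4T1p, 26.6% of 64 such mature neutrophil barcodes (16.3 to 39.1%), and 16 in that labelled 4T1m, 9.41% of 170 (5.48 to 14.8%).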

How the results depend on the processing

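No paired analysis was possible because each tumor has 1 library and the labels give no replicate numbers. Shares are given labelled 4T1p first and 4T1m second. Requiring 2 of 7 genes gave shares of 50.6% and 18.2% of mature neutrophils, 25.9% and 31.9% of macrophage-gated and 16.7% of immature barcodes, 0 genes lower, and 23 higher and 19 lower between libraries. Requiring 4 gave 16.7% and 3.38%, 8.89% and 9.39% of macrophage-gated barcodes, 8 genes lower and 5 lower between libraries. Thinning gave 17.7% and 3.24%, macrophage-gated 2.96% and 4.21%, immature 1.67%, lymphocyte-gated 0%, medians of the interferon-stimulated genes of 0.72 and 0.85 (1.26 and 1.35 as reported), 8 genes higher and 6 lower of 692 tested, and 0 higher and 4 lower between libraries of 33 tested. With a mitochondrial limit of 5% the median labelled 4T1m was 1.08, macrophage-gated shares 9.23% and 15.04%, the lymphocyte-gated share 0% and 25 genes higher. Requiring a Ptprc UMI gave macrophage-gated shares of 31.8% and 27.3%. A limit of 50 UMIs per gene gave 106 higher and 44 lower, and 78 and 48 between libraries. The count of lower genes was 1 with N at least 20, 4 with N at least 4 times M (and 8 genes higher between libraries), 13 without the limit on Camp, Ngp and Ltf, and 10 when each gene lost the member barcode with most of its UMIs, an alternative chosen after seeing the data.

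In every setting run, the share of mature neutrophils that met the criterion was higher labelled 4T1p than labelled 4T1m. Of the gene ratios 4 reversed: with 2 of 7 genes Hbb-bs was 5.60 and Gm26870 0.014 in members over others, with N at least 4 times M C1qa was 0.22 and after thinning Fn1 −0.31 between libraries. The cause was not tested. Hbb-bs had 967 of its UMIs in 1 barcode that changed sides. Of the remaining gene values 376 stayed and 69 moved past their interval without changing sign. Centring on the median of all genes gave 45 genes higher, with all 42 among them. Removing Scrublet-ranked barcodes left 70 and 67 members and 39 higher genes. Neither changed the number of members or of higher genes by over 1.5 times. Of the macrophage markers that had passed, Apoe and C1qa no longer did once those barcodes were removed. Depth limits what can be compared: 378 genes reached 200 UMIs within the members and 1915 in members and others together.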

Other observations

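Of 6 tested NADPH oxidase genes, which make the respiratory burst, 0 passed 2-fold in the pooled libraries and in each of them, beside 2.19% of all tested genes. Cybb, the catalytic subunit, had a pooled log2 ratio of 1.36 and was at 274 and 468 CPM in members labelled 4T1p and 4T1m against 147 and 149 in other mature neutrophils, and Cyba had a pooled log2 ratio of 0.07 (−0.09 to 0.24). Cybb is also a macrophage gene, at 1243 and 1680 CPM in macrophage-gated barcodes that met the criterion. Of 6 tested genes for survival and death 0 passed, and Mcl1, which keeps neutrophils alive, had a pooled ratio of 0.01 (−0.06 to 0.08). Casp8 had 47 UMIs in members and 100 in others, with a ratio of 1.34 (0.80 to 1.85), and was below the count limit.

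Of 7 tested chemokine receptors and their kin 0 passed. Cxcr2, the receptor for Cxcl2, had a pooled ratio of −0.10 (−0.32 to 0.12) and Ccrl2 0.42 (0.36 to 0.47). In the Ly6 family Ly6e, an interferon-stimulated surface protein, was the 1 of 2 tested that passed, at 439 and 203 CPM in members labelled 4T1p and 4T1m against 186 and 58.3. Without the barcode that held 19 of its 174 UMIs its log2 ratio labelled 4T1p was 0.99 and it no longer passed, nor did it at a mitochondrial limit of 5% (0.74 labelled 4T1p). After thinning it fell under 200 UMIs, with a ratio of 0.23 labelled 4T1m. Ly6g, which the GR-1 antibody binds, was at 27.4 and 85.1 CPM against 65.4 and 74.9, and without 1 barcode labelled 4T1m that held 13 of its 33 UMIs the log2 ratio labelled 4T1m was −0.79. Ly6c1 had 38 UMIs in members and 28 in others, with a pooled ratio of 2.87 (2.12 to 3.62). It was below the count limit and so was not among the tested genes.

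Among the 10 lowest-ranked genes, Areg, an epidermal growth factor receptor ligand, had 7 UMIs in members and 297 in others, with ratios of −0.06 labelled 4T1p and −2.57 labelled 4T1m. Stfa3, a stefin, had 32 and 741 UMIs with ratios of −0.77 and −2.02. Zfp608, the 1 of these 10 past 2-fold lower in both libraries, had 14 and 220 UMIs with ratios of −1.06 and −1.43.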
